A study of Mus musculus with 92 samples.

Results

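Gapdh and 4 retrocopies, namely Gapdhrt and Gapdhrt2 (copies of Gapdh), Rps18-ps6 (a copy of Rps18) and Rpl10-ps3 (a copy of Rpl10), make up 5 of the 13441 genes in the expression table. The 4 retrocopies were selected on their levels, because each split the animals into a low and a high set with no animal between them. Gapdh was included as the parent of the first pair. Messenger RNA was sequenced from the quadriceps of 92 DOz mice, an Australian colony of Diversity Outbred mice, which is a stock bred from several inbred strains and carries many mixed haplotypes. All animals ate standard chow throughout life, were about 18 to 20 weeks old and form 1 group with no treated animals, and the labels used here give neither genotype nor sex. Levels are log2 values on a per-million scale, and a gene with no read is listed at a floor of about -3.86.

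A retrocopy arises when the machinery of a LINE-1 element copies a spliced messenger RNA back into the genome, so it lacks the introns of its parent and lands on an unrelated chromosome. Most are silent, and a few are transcribed from a promoter near the insertion. Gapdh encodes the glycolytic enzyme glyceraldehyde-3-phosphate dehydrogenase, one of the most abundant transcripts of fast skeletal muscle. Rps18 encodes a protein of the small ribosomal subunit and Rpl10 one of the large subunit. Because a recent copy is almost the same sequence as its parent, a short read from one can match the other, and the pseudoaligner named in the submitters' processing notes (kallisto) divides such reads between them. The levels of copies and parents given here are uncertain to that extent.

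The loci were taken from GENCODE M21 on GRCm38 (mm10), where all 4 retrocopies are tagged as retrogenes and annotated as protein coding. Gapdh lies at chr6:125161715-125166467 on the minus strand and overlaps Iffo1 on the other strand. Gapdhrt (named Gm3839 in that release) lies at chr14:11280735-11356726 on the minus strand, has 4 exons, and holds a microRNA and a small nucleolar RNA gene on the opposite strand. Gapdhrt2 (named Gm10358) is a single exon at chr8:75405340-75406589, minus strand. Rps18-ps6 (named Gm10260) is a single exon at chr13:97760072-97760632, minus strand, overlapped on the plus strand by the long noncoding RNA gene Gm26619. Its parent Rps18 lies at chr17:33951999-33956001, minus strand, and overlaps Vps52. Rpl10-ps3 is a single exon at chr9:50344201-50344968, minus strand, and its parent Rpl10 lies at chrX:74270812-74273135, plus strand. Whether the reads were counted by strand is not given in the sources used here, so reads from overlapping genes on opposite strands cannot be told apart.

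The coding sequences show how little separates the copies from their parents. Gapdhrt and Gapdhrt2 each matched 995 of the 1002 coding bases of Gapdh, with 7 substitutions each and no insertion, deletion or stop codon. In positions counted from the A of the start codon, with the parent's base first, Gapdhrt carried G45A, T63C, T150C, G466T, C591T, A747T and C831T. Gapdhrt2 carried T33C, T62C, T63C, T150C, C153T, C591T and G718A, so T63C, T150C and C591T were common to both copies. The first 90 coding bases are shown because they hold substitutions of both copies. Capitals mark the bases that differ within each pair.
Gapdhrt: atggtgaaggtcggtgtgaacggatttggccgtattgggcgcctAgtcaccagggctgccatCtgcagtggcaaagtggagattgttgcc
Gapdh beside Gapdhrt: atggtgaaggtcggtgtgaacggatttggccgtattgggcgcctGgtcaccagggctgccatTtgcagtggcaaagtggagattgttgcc
Gapdhrt2: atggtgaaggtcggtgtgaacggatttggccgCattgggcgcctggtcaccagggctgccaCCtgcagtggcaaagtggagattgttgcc
Gapdh beside Gapdhrt2: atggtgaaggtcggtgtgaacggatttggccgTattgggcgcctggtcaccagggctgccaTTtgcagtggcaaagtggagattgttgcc

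Rps18-ps6 matched 455 of the 459 coding bases of Rps18, with the substitutions T186C, A337C, G371A and G431A. A second copy of Rps18 in the table, Rps18-ps5 (named Gm11361, chr13:28257528-28258134, plus strand), matched 456 of 459, with T11A, A171C and A337C, so A337C was common to both Rps18 copies. It was brought in because it shares the parent of Rps18-ps6. The 90 coding bases that end at position 371 are shown for Rps18-ps6 and its parent because they hold 2 of the 4 differences.
Rps18-ps6: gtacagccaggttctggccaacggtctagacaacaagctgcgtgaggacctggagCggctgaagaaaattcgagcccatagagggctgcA
Rps18: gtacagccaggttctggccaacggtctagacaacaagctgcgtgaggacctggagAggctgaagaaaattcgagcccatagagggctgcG

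Rpl10-ps3 matched Rpl10 at all 645 coding bases. Its first 90 coding bases are shown without capitals because the parent reads the same.
Rpl10-ps3: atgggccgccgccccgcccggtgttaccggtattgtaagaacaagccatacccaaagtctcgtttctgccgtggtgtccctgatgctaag

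The part of each transcript that a read could be assigned by was measured as words of 31 bases, the default word length of kallisto. Of the 1220 words of Gapdhrt2, 82.8% also occurred in a Gapdh transcript and 4.43% occurred in no other annotated gene. Of the 738 words of Rpl10-ps3, 96.2% occurred in Rpl10 and 3.52% in no other gene. These 26 words began at bases 711 to 736, at the 3′ end of the transcript, beyond an unbroken shared stretch of 740 bases. Rps18-ps6 had 531 words, 68.7% of them in Rps18 and 21.8% in no other gene. Gapdhrt had 1682 words, 55.6% of them in Gapdh and 32.2% in no other gene, most of these in the first 463 bases of the transcript, ahead of the copied part. A map of these words shows the distinguishing stretches. In the 4 retrocopies, no such stretch outside the 5′ part of Gapdhrt held more than 41 words. Some lay at transcript ends, as at words 491 to 531 of Rps18-ps6 and 1 to 23 of Gapdhrt2. Rps18-ps5, also on the map, had stretches of 67 and 45 words.

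**Figure D1:**
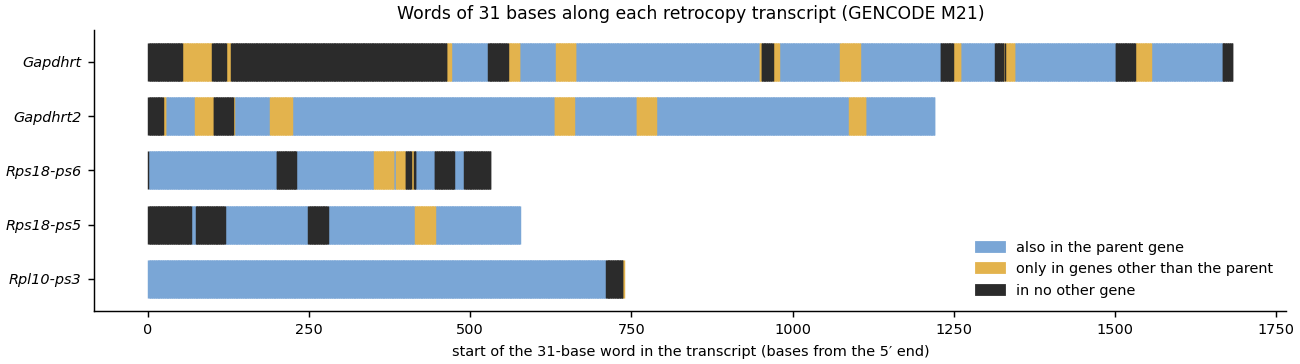
Words of 31 bases along each retrocopy transcript; the x axis is the start of the word in bases from the 5′ end, blue marks words that also occur in the parent gene, yellow words that occur only in genes other than the parent, and black words in no other annotated gene. Rpl10-ps3 is blue up to base 710, and Gapdhrt is black over most of its first 463 bases.

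With the animals sorted by level, a step of 1 log2 unit or more counted as a gap if 5 or more animals stood below it and as many above. The 4 retrocopies met it by the choice that made them members, so the following values are a description and carry no test. Such a gap was present in 0.351% of the 11116 genes whose mean level reached 1 (39 genes). Of 20 genes in that set tagged as retrogenes, 6 had one, the other two being Ftl1-ps1 and Tpm3-rs7. The narrowest gap among the retrocopies was 2.73 log2 units in Rpl10-ps3, whereas in Gapdh no step that left 5 animals on both sides exceeded 0.0984.

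Gapdhrt was low in 86 animals, from 0.69 through a median of 1.98 to 3.60, and high in 6. The 6 high animals had levels of 8.73, 9.01, 9.11, 9.23, 9.25 and 9.26. Gapdhrt2 showed the opposite split. It was low in 9 animals, from 4.74 through a median of 5.12 to 5.90, and high in 83, from 10.02 through 10.63 to 11.84. Within these 83 animals a smaller step of 0.151 separated a lower run of 46 animals (10.02 to 10.69) from an upper run of 37 (10.84 to 11.84).

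Rps18-ps6 was at the floor in 4 animals and at -2.29 in 1 more. The other 87 ranged from 3.26 through a median of 4.72 to 5.41. Rpl10-ps3 lay between -3.86 and -3.18 in 11 animals, 3 of them at the floor, and between -0.45 and 7.22 in 81, with a median of 4.84. The upper side of Rpl10-ps3 was a slope and not a plateau, with an SD of 1.71 against 0.54 on the upper sides of Gapdhrt2 and of Rps18-ps6. Gapdh ran from 11.89 through 12.70 to 13.43, Rps18 from 4.25 through 5.45 to 7.07, and Rpl10 from 6.63 through 7.88 to 8.38.

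**Figure D2:**
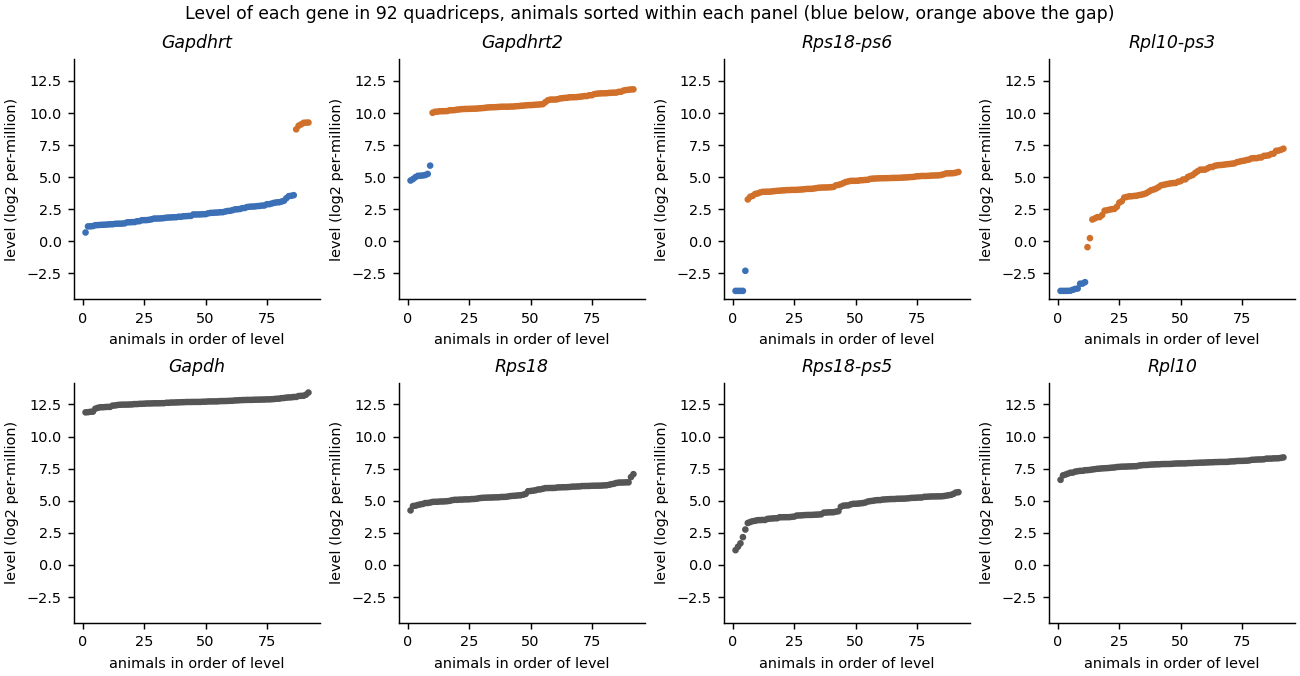
Level of each gene (log2 per-million, y axis) in 92 animals sorted within each panel (x axis); blue points lie below and orange points above the gap of a retrocopy, and grey panels have no gap. The retrocopies break into separate levels, while Gapdh, Rps18 and Rpl10 rise without a step of 1 log2 unit.

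The smaller sides were made up of different animals for the most part. No animal that was high in Gapdhrt was low in Gapdhrt2 or in Rps18-ps6, and none of the 9 animals low in Gapdhrt2 was low in Rps18-ps6. Of the 11 animals low in Rpl10-ps3, 2 were high in Gapdhrt and 1 was low in Gapdhrt2. Sides of so few animals would share few or no animals even if they were unrelated. These counts therefore cannot tell unrelated sides from sides that avoid each other, and the overlaps were not tested. The numbers in the sample titles fall into 5 runs that may mark batches (33, 14, 21, 11 and 13 animals). High Gapdhrt, low Gapdhrt2 and low Rpl10-ps3 each occurred in every run, and low Rps18-ps6 occurred in 4 animals of the first and 1 of the fifth. None of the 5 members differed between these blocks (limma F test, adjusted p from 0.799 for Gapdh to 0.986 for Gapdhrt, with 2 of 13441 genes called).

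The levels of Gapdh in the animals on the smaller sides of its copies were read one by one. Among the 6 animals high in Gapdhrt, in ascending order of Gapdhrt, Gapdh stood at 12.63, 11.94, 11.89, 11.90, 12.65 and 11.93. Of these, 4 were the 4 lowest Gapdh levels of all 92 animals, below the next by 0.232, and the other two lay near the middle. In the 9 animals low in Gapdhrt2, Gapdh lay between 12.82 and 13.43, with a median of 13.09, against a median of 12.70 over all animals. The 9 included the highest Gapdh level of the series.

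Because the copies are split by gaps, their relation to the parent was measured within each side. Copies and parents share reads, and the permutation tests treat their levels as separately measured. The p-values therefore cannot show that transcription of a copy and its parent is related. In the 86 animals low in Gapdhrt, it bore no detectable relation to Gapdh (r = -0.0382, permutation p = 0.726, adjusted p = 0.758; rho = -0.0173). The small sides were too few for a firm value: r was -0.402 in the 6 animals high in Gapdhrt (exact permutation p = 0.471) and 0.127 in the 9 low in Gapdhrt2 (exact permutation p = 0.724). In the 83 animals high in Gapdhrt2, r with Gapdh was -0.198 (permutation p = 0.0723, adjusted p = 0.248) and rho was -0.00357. These 83 animals form the 2 runs described above, and the relation was measured in each. In the lower run of 46 animals Gapdhrt2 and Gapdh were positively related, with r = 0.771 (permutation p = 1e-05, the smallest that 100000 resamples can give, adjusted p = 4e-05) and rho = 0.778. Dropping the 2 animals with the most extreme Gapdhrt2 left r at 0.757, and r ran from 0.658 to 0.888 inside the 5 title-number blocks. In the upper run of 37 animals r was 0.000114 (permutation p = 1, adjusted p = 1), rho was 0.13, and r was -0.367 to 0.0593 within 3 blocks. That value depended on a few animals. The upper run holds the 6 animals high in Gapdhrt, and without them r was 0.318 over 31 animals (permutation p = 0.0821, adjusted p = 0.123), while rho was 0.436 (permutation p = 0.0149, adjusted p = 0.0224). The 2 lowest Gapdhrt2 levels among the 31, 10.84 and 10.98, were paired with Gapdh levels of 13.01 and 13.26. In these 2 animals Gapdhrt2 made up 18.2% and 17.1% of the summed level of Gapdh and its copies. Its share was 14.3% to 18.5% in the lower run and 23.1% to 43.6% in the rest of the upper run. The other 29 animals gave r = 0.735 as a description, since the 2 were singled out after their values were seen. The runs were noticed in these data before they were compared.

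**Figure D3:**
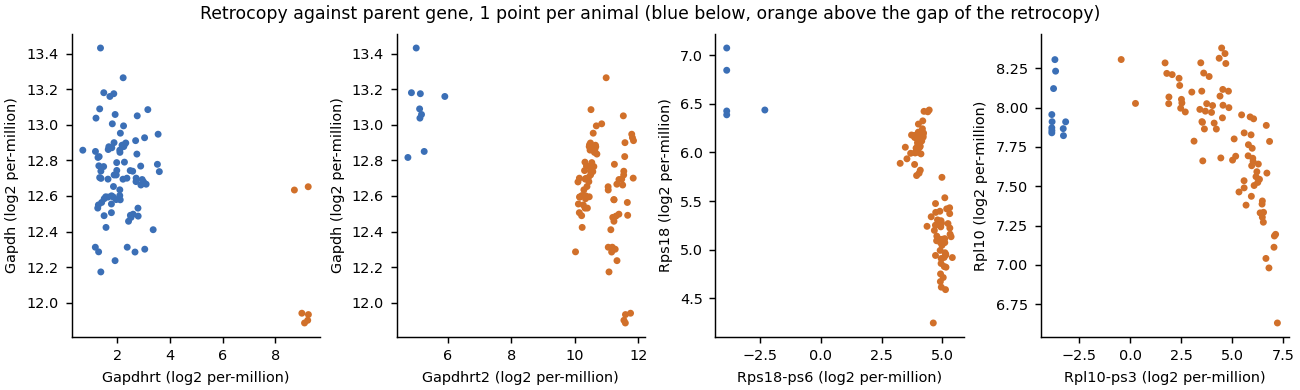
Level of each retrocopy (x axis, log2 per-million) against its parent gene (y axis, log2 per-million), 1 point per animal, blue below and orange above the gap of the retrocopy. The 83 animals high in Gapdhrt2 and the 87 animals high in Rps18-ps6 each fall into 2 clouds, and Rpl10 falls along a curve as Rpl10-ps3 increases.

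Each gene of the table was then fitted on the level of each retrocopy over all 92 animals (limma slope in log2 units per SD of the retrocopy, Benjamini-Hochberg adjustment over 13440 genes). The slope on Gapdhrt was called for 0.0149% of genes, which was 2 genes, and 442 genes had an unadjusted p under 0.05. The first was Vmn2r60, a vomeronasal receptor gene on chromosome 7, with a slope of 0.35 ± 0.03 (SE; limma adjusted p = 4.25e-20). The 6 animals high in Gapdhrt held the 6 highest levels of Vmn2r60, from 4.30 to 4.71, against a median of 3.16 over all animals. Vmn2r60 shares 0 words of 31 bases with Gapdh, Gapdhrt or Gapdhrt2 in GENCODE M21. The second gene was Gapdh itself, with a slope of -0.14 ± 0.03 (limma adjusted p = 0.0104). Neither was called among the 86 low animals alone, where Gapdhrt had an SD of 0.646 against 1.85 over all animals. Per log2 unit of Gapdhrt the slope of Vmn2r60 was 0.103 there (limma adjusted p = 0.794) against 0.187 over all animals, and that of Gapdh -0.0143 (adjusted p = 0.996) against -0.0739. Gapdh also missed the threshold without the 2 animals with the most extreme Gapdhrt (-0.0801 per log2 unit, adjusted p = 0.0545). With ranks of Gapdhrt its slope was -0.0672 per SD and it was not called (limma adjusted p = 0.917).

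Neighbours were taken as genes starting within 5 megabases of a locus. Of 18 genes starting within 5 megabases of Gapdhrt, 0 were called and 0 had an unadjusted p under 0.05. With 0.0149% of all genes called, 0 calls among so few genes is the background share and shows nothing about them; the same holds for the other counts of 0 around the retrocopies below. The nearest, Fhit at -0.195 megabases (negative distances point to the lower coordinate), had a slope of 0.03 (limma adjusted p = 1), and Cep15 at 0.927 megabases had 0.03 (adjusted p = 1). Around Gapdh, 0 of 92 genes were called and 10 had an unadjusted p under 0.05.

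The genes called with Gapdhrt2 included 2 near Gapdh and none near itself. The fit called 0.0298% of genes, which was 4 genes, and 385 had an unadjusted p under 0.05. C1rb and C1s2, mouse-specific paralogs of the complement proteases C1r and C1s, start at -0.596 and -0.53 megabases from Gapdh on chromosome 6. Their slopes were 1.39 ± 0.12 (limma adjusted p = 4.73e-15) and 0.99 ± 0.11 (adjusted p = 1.39e-10). In the 9 animals low in Gapdhrt2, C1rb lay between the floor and -1.61, with the median at the floor, against 0.56 over all animals. C1s2 lay between the floor and -1.63 in these 9, against a median of 0.27 over all animals. The highest of the 9, -1.63, ranked 17 of 92 from the lowest, so levels as low also occurred in other animals. Near-identical paralogs stand beside both genes, so reads may be divided between them. The other two calls were Gapdh (slope -0.14 ± 0.03, limma adjusted p = 0.0034) and Gak, a kinase of clathrin uncoating on chromosome 5 (slope 0.11 ± 0.02, adjusted p = 0.00796). Without the 2 animals with the most extreme Gapdhrt2, Gak was not called (limma adjusted p = 0.0675). Its slope there was 0.0584 per log2 unit of Gapdhrt2, against 0.0594 over all animals. With ranks neither Gak (limma adjusted p = 0.52) nor Gapdh (0.877) was called.

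Of 92 genes within 5 megabases of Gapdh, C1rb and C1s2 were the 2 called, and 19 had an unadjusted p under 0.05. The 4 genes nearest Gapdh (Iffo1, Ncapd2, Mrpl51 and Nop2, all within 0.0346 megabases) were not called, with slopes from -0.08 to -0.04 (limma adjusted p = 1). Of 92 genes within 5 megabases of Gapdhrt2 on chromosome 8, 0 were called and 4 had an unadjusted p under 0.05. The nearest of these, Rasd2 at -0.193 megabases, had a slope of -0.03 (limma adjusted p = 1). Over the 83 animals high in Gapdhrt2 alone, 3 neighbours of Gapdh were called. Gapdhrt2 had an SD of 0.54 in these animals against 1.78 over all, so slopes are compared per log2 unit of Gapdhrt2. The 3 were C1rb (1.22 against 0.783 over all animals, limma adjusted p = 0.0197), C1s1, the paralog of C1s2 (-0.667 against -0.134, adjusted p = 0.0495), and Cops7a, a subunit of the COP9 signalosome (0.14 against 0.0257, adjusted p = 0.0197). C1s2 was not called there at 0.715 against 0.554 (adjusted p = 0.736), nor was Gapdh at -0.0962 against -0.0787 or Gak at 0.0492 against 0.0594 (adjusted p = 0.991 for both).

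Ranked by absolute Spearman correlation over 92 animals, and taking genes whose mean reached 1, the genes most like Gapdhrt2 were C1s1 (-0.55), Gapdhrt (0.531), Cops7a (0.528), Mlf2 (-0.447) and Vmn2r60 (0.391). C1s1, Cops7a and Mlf2 all start within 1 megabase of Gapdh. The genes most like Gapdhrt were Gapdhrt2 (0.531), Cops7a (0.423), Rps28 (0.412), Rps29 (0.4) and Vmn2r60 (0.398). These ranks run over both sides of the gaps and are a description.

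Rps18-ps6 moved with the other copy of Rps18 and against the parent. Reads can be divided among these genes, and the tests of their relations do not allow for that. In the 5 low animals Rps18-ps6 was at -3.86, -3.86, -3.86, -3.86 and -2.29. Rps18 in the same animals, in that order, was 6.84, 6.43, 7.07, 6.39 and 6.44, all among the 8 highest of 92. Rps18-ps5 was 1.68, 1.42, 2.76, 2.16 and 1.15, the 5 lowest of 92. The slope on Rps18-ps6 was -0.36 ± 0.05 for Rps18 (limma adjusted p = 6.44e-07) and 0.76 ± 0.06 for Rps18-ps5 (adjusted p = 2.77e-19).

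Over the 87 animals high in Rps18-ps6, r with Rps18 was -0.796 (adjusted p = 0.00012; its permutation p of 1e-05 is the smallest possible). Spearman's rank correlation was -0.713, and r ran from -0.918 to -0.673 inside the 5 title-number blocks. That value describes a separation into 2 runs. Split at a step of 0.345 in Rps18-ps5, the lower run held 38 animals with Rps18 between 5.76 and 6.44, and the upper run 49 animals with Rps18 between 4.25 and 5.74. Within the lower run the relation of Rps18-ps6 to Rps18 was positive (r = 0.541, permutation p = 0.00037, adjusted p = 0.000987; rho = 0.526). It stayed at 0.543 when the 2 most extreme animals were dropped, and ran from 0.265 to 0.806 inside 3 blocks. Within the upper run it was not detectable (r = -0.0227, permutation p = 0.879, adjusted p = 1; rho = -0.114). Rps18-ps6 and Rps18-ps5 were positively related within both runs, with r = 0.472 in the lower (permutation p = 0.00261, adjusted p = 0.00522; rho = 0.431) and r = 0.685 in the upper (permutation p = 1e-05, adjusted p = 4e-05; rho = 0.722). The runs were defined after the values were seen.

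The genes associated with Rps18-ps6 lay largely on the parent's chromosome. The fit called 0.112% of genes, which was 15 genes, and 1385 had an unadjusted p under 0.05. Apart from Rps18 and Rps18-ps5, 13 genes were called, of which 9 lie on chromosome 17 with Rps18, and 0 of the 13 share a word of 31 bases with Rps18 or its copy. Within 5 megabases of Rps18, 6 genes were called, 3.35% of those there, and 6 of 163 after leaving out genes that share such a word. The 4 genes nearest Rps18 (Vps52, B3galt4, H2-K1 and Ring1) were not called, with slopes from -0.14 to -0.0019 (limma adjusted p from 0.313 to 0.995). H2-Ea, an MHC class II alpha chain, starts 0.389 megabases from Rps18 and had a slope of 1.21 ± 0.21 (limma adjusted p = 0.000364). It was at the floor in 4 of the 5 low animals and at -2.73 in the fifth, against a median of 1.75 over all animals. The level of -2.73 ranked 18 of 92 from the lowest, so levels as low also occurred in animals high in Rps18-ps6.

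Among the other neighbours of Rps18, Zfp414, a zinc finger gene, had a slope of 0.17 (limma adjusted p = 0.000626) and H2-M3, an MHC class I gene, 0.29 (adjusted p = 0.000655). Pfdn6, a prefoldin subunit, had a slope of -0.10 (limma adjusted p = 0.0269) and Zbtb12 one of -0.13 (adjusted p = 0.0381). With title-number block as a covariate Zbtb12 lost its call (slope -0.124, adjusted p = 0.0527). Farther along chromosome 17, Cyp39a1, an oxysterol hydroxylase at 9.71 megabases, had a slope of -0.23 (limma adjusted p = 0.000281) and Enpp5 at 10.1 megabases one of 0.16 (adjusted p = 0.000655). Off that chromosome, Tigd4 (slope 0.28, limma adjusted p = 0.00976) and Atp8a2, a phospholipid flippase (slope -0.25, adjusted p = 0.0105), were called. Leaving out the 2 animals with the most extreme Rps18-ps6, 6 genes were called. H2-M3, Pfdn6, Zbtb12, Tigd4 and Atp8a2 were not among them (limma adjusted p from 0.238 to 0.67). Per log2 unit of Rps18-ps6, Pfdn6 (-0.0563 against -0.0504 over all animals), Zbtb12 (-0.0717 against -0.0678) and Atp8a2 (-0.132 against -0.128) kept their slopes. Those of H2-M3 (0.077 against 0.151) and Tigd4 (0.0732 against 0.143) were smaller. Over the 87 high animals alone 3 genes were called: Rps18-ps5, Rps18 and Cyp39a1 (limma adjusted p = 1.51e-05). Rps18-ps6 had an SD of 0.539 in these animals against 1.92 over all. Per log2 unit of Rps18-ps6 the slope of Cyp39a1 was -0.448 there against -0.122 over all animals, and that of H2-Ea 1.19 against 0.629, although H2-Ea was not called (adjusted p = 0.7). Of the neighbours of Rps18, 0 were called there.

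Around Rps18-ps6 itself, on chromosome 13, 0 of 53 genes were called and 4 had an unadjusted p under 0.05. The nearest on either side, Arhgef28 at 0.446 megabases and Enc1 at -0.52 megabases, had slopes of -0.01 (limma adjusted p = 0.973) and 0.14 (adjusted p = 0.337). Among genes whose mean reached 1, those most like Rps18-ps6 by Spearman correlation were Rps18-ps5 (0.918), Rps18 (-0.754), Cyp39a1 (-0.617), Zfp414 (0.488) and H2-K1 (-0.432), the last an MHC class I gene 0.0443 megabases from Rps18.

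**Figure D4:**
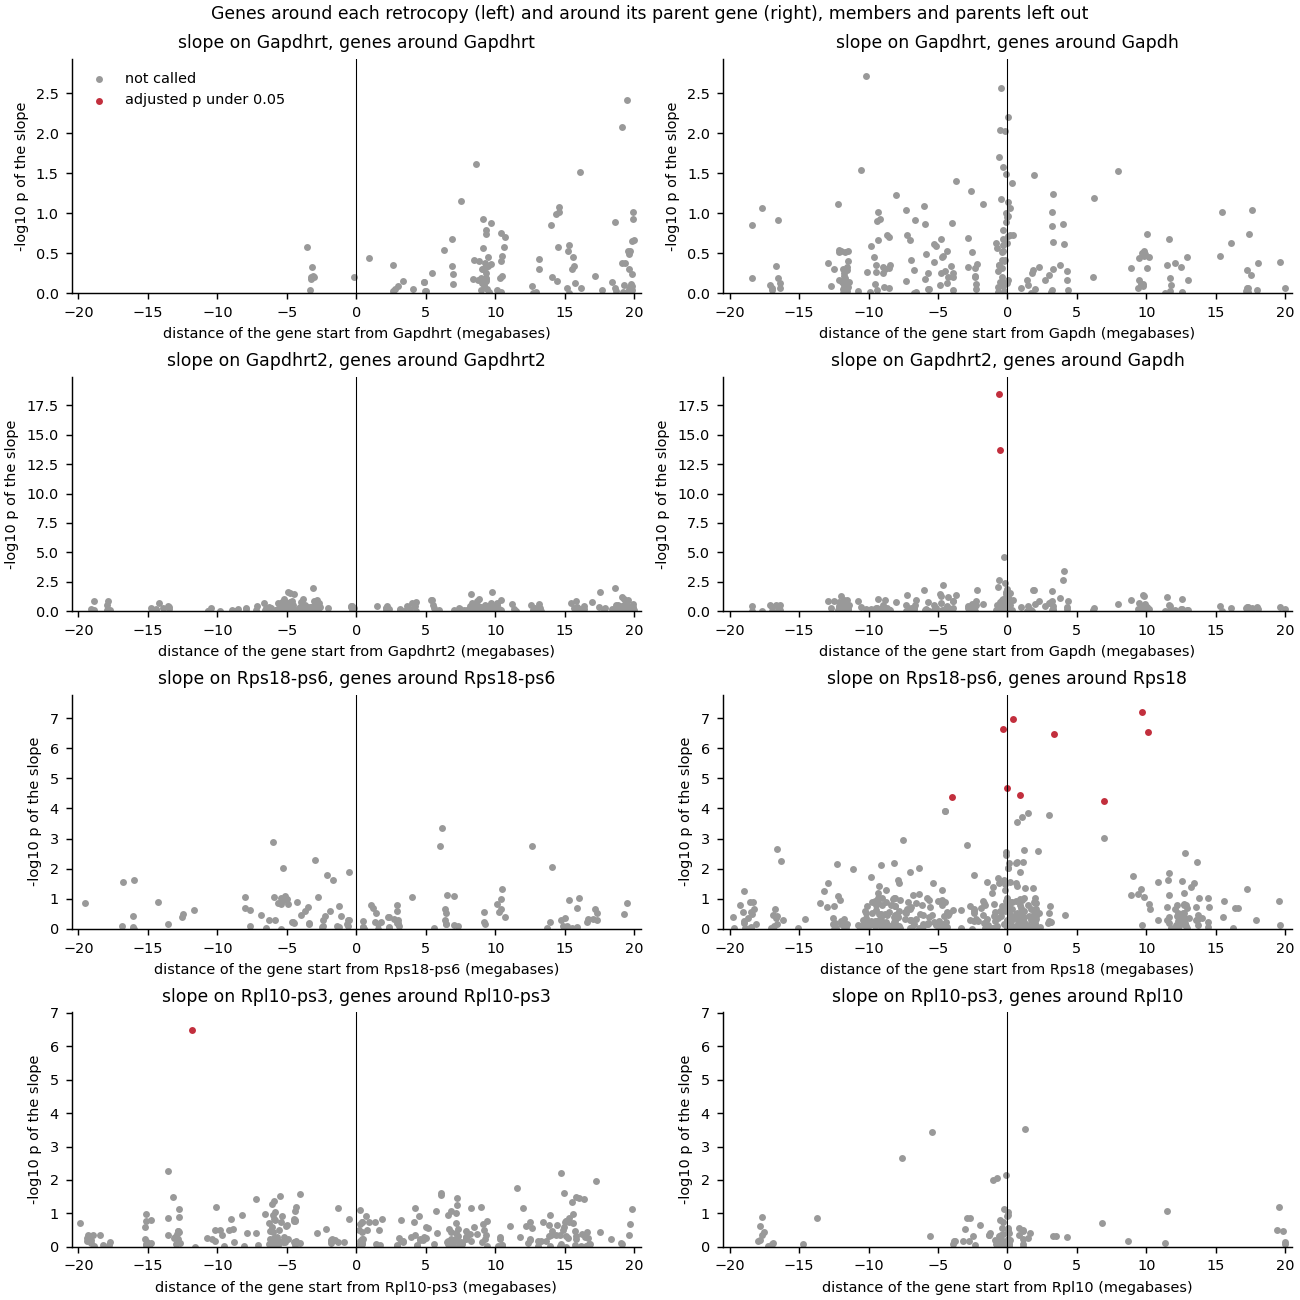
Strength of the slope on each retrocopy (-log10 of the limma p, y axis) for genes within 20 megabases of the retrocopy (left) and of its parent (right), by distance of the gene start in megabases (x axis); red points had an adjusted p under 0.05. Within 5 megabases red points appear only around Gapdh in the fit of Gapdhrt2 (2 genes) and around Rps18 in the fit of Rps18-ps6 (6 genes).

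Rpl10-ps3 ran against its parent over the upper side. Reads can be divided between the copy and the parent, since 96.2% of the words of Rpl10-ps3 occur in Rpl10. The permutation test treats the levels as separately measured, so its p-values cannot show that the transcription of Rpl10-ps3 and Rpl10 is related. Over the 81 animals above the gap, r with Rpl10 was -0.737 (adjusted p = 0.00012; its permutation p of 1e-05 is the smallest possible) and rho was -0.798. Dropping the 2 most extreme animals left r at -0.753, and r ran from -0.849 to -0.671 inside the 5 title-number blocks. The widest step within that side, 0.339, left 7 animals below it and 74 above. In the 74 r was -0.742 (permutation p = 1e-05, adjusted p = 3e-05; rho = -0.779), and in the 7 it was -0.187 (exact permutation p = 0.634). In the 11 animals below the gap r was -0.171 (permutation p = 0.622, adjusted p = 0.755). Rpl10 in these 11 lay between 7.82 and 8.30, with a median of 7.91, close to the median of 7.88 over all animals.

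The fit on Rpl10-ps3 called 0.551% of genes, which was 74 genes, 46 with a positive and 28 with a negative slope, and 1028 had an unadjusted p under 0.05. Rpl10 had a slope of -0.17 ± 0.03 (limma adjusted p = 0.000136). Of the other 73, 68 were spread over 19 autosomes with at most 7 on one, 1 was mitochondrial and 4 had no position in the annotation, unlike the calls for Rps18-ps6, of which 9 of 13 lay on chromosome 17; this contrast was not tested. Klf10, a transcription factor induced by TGF-beta, came first with a slope of 0.22 ± 0.03 (limma adjusted p = 1.13e-07), and Stox2 (0.26), Sap18, a subunit of Sin3 repressor complexes (0.20), and Calb1, the calcium binding protein calbindin (0.37), also had positive slopes. Calb1 shares a word of 31 bases with Rpl10 or its copy.

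Cycs, which encodes the electron carrier cytochrome c, had a slope of -0.21 ± 0.03 (limma adjusted p = 9.28e-06), and the predicted genes Gm42417 (-0.26) and Gm49513 (-0.73) were also negative. Among genes whose mean reached 1, which leaves out Gm49513, those most like Rpl10-ps3 over 92 animals were Klf10 (Spearman 0.81), Gm42417 (-0.748), Cycs (-0.718), Stox2 (0.715) and Rpl10 (-0.711). Over the 81 animals above the gap 134 genes were called, 64 of them among the 74, and the slope of Klf10 per log2 unit of Rpl10-ps3 was 0.158 (limma adjusted p = 1.21e-13) against 0.0706 over all animals.

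In a fit that called 0.551% of all genes, no neighbour was called at either locus of this pair. Within 5 megabases of Rpl10-ps3 0 of 69 genes were called and 1 had an unadjusted p under 0.05, and around Rpl10 0 of 62 were called and 4 had one. With 3 principal components as covariates, a minimum mean of 1, the log2(value + 1) scale, ranks or the ratio to the parent, 1 gene near Rpl10 was called, in each case the prefoldin subunit gene Vbp1, named after its values were seen (limma adjusted p = 0.0539 in the fit reported here, and 0.0102 to 0.0498 in those). The closest genes on either side of Rpl10-ps3, Plet1os at 0.163 and Ncam1 at -0.546 megabases, had slopes of -0.03 (limma adjusted p = 0.987) and 0.08 (adjusted p = 0.802). Those closest on either side of Rpl10, Tafazzin at 0.0111 and Emd at -0.0161 megabases, both had slopes of -0.01 (adjusted p = 0.958 and 0.968).

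The adjusted p-values of the relations within sides, here and with the parents above, cover the 24 relations computed. Within 77 animals low in Gapdhrt and high in Gapdhrt2, the 2 Gapdh copies were positively related, with r = 0.385 (permutation p = 0.00047, adjusted p = 0.00376) and rho = 0.372 (adjusted p = 0.00856). Dropping the 2 most extreme animals left r at 0.378, and r ran from -0.0142 to 0.735 inside the blocks. Inside the 2 runs of Gapdhrt2 it was no longer detectable, with r = 0.089 over 46 animals (permutation p = 0.557) and r = 0.229 over 31 animals (permutation p = 0.215). Rps18-ps6 was related to Gapdh over its 87 high animals (r = 0.292, permutation p = 0.00589, adjusted p = 0.0283; rho = 0.313), with r from 0.228 to 0.402 inside the 5 blocks. With block means removed r was 0.23 and missed the threshold (adjusted p = 0.156). In the 6 animals high in Gapdhrt, r with Rps18-ps6 was 0.893 (exact permutation p = 0.00556, adjusted p = 0.0283), with rho = 0.829 (adjusted p = 0.28), and r was 0.473 once block means were removed (adjusted p = 0.624).

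The sum of a parent and its copies varied less between animals than the parent. The log2 of the summed per-million values of Gapdh, Gapdhrt and Gapdhrt2 had an SD of 0.198 over 92 animals, against 0.287 for Gapdh alone. For Rps18 with Rps18-ps6 and Rps18-ps5 the SD was 0.167 against 0.593 for Rps18, and for Rpl10 with Rpl10-ps3 it was 0.167 against 0.345. The sum was chosen after the values were seen, and no test was made of the difference.

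The copies took up variable shares of these sums, which are shares of the per-million values. Whether these values were corrected for transcript length is not given in the sources used here. Gapdhrt2 held 0.289% to 43.6% of the Gapdh sum, with a median of 17.5%. Its shares fell into separate groups at 0.289% to 0.649%, 14.3% to 18.5% and 23.1% to 43.6%. Gapdhrt held at most 8.12%, with a median of 0.0487%. The share listed under Gapdh itself ran from 49.8% to 99.7%. Rps18-ps6 held 0.0488% to 35.1% of its family's sum and Rps18-ps5 2.50% to 45.4%, which left Rps18 with 22.9% to 97.3%. The shares of Rps18 also fell into groups, at 22.9% to 45.7%, 64.1% to 75.2% and 94.8% to 97.3%. These groups were read from the values and carry no test. Rpl10-ps3 held 0.0242% to 60.1%, so in the animal with the highest share more of the sum was listed under the copy than under Rpl10.

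**Figure D5:**
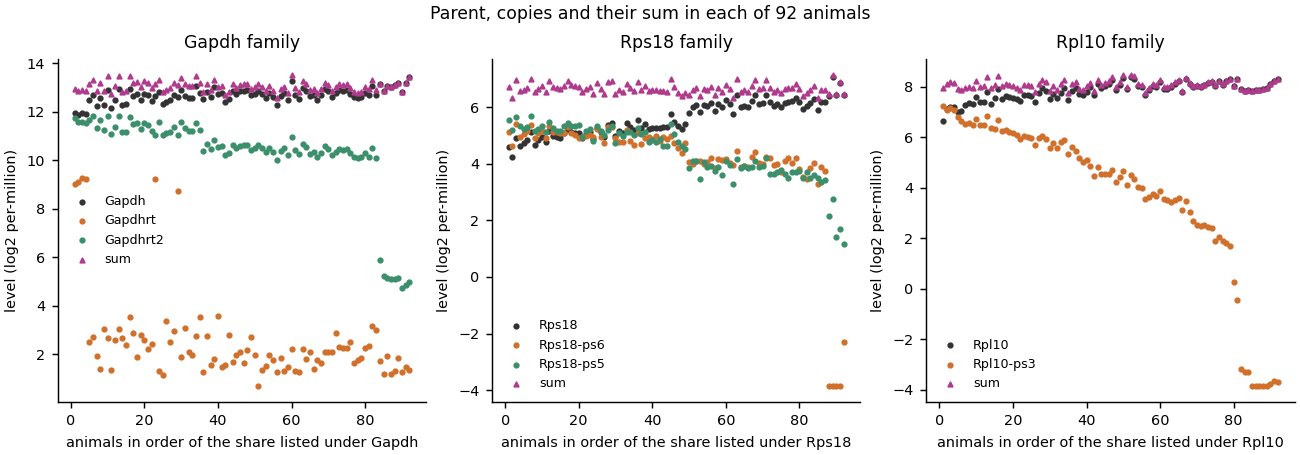
Levels of each parent (black), its copies (orange and green) and their sum (purple triangles) in log2 per-million (y axis), with the 92 animals ordered by the share of the sum listed under the parent (x axis). The sums stay within 12.56 to 13.53, 6.31 to 7.14 and 7.74 to 8.47, while the copies drop in steps for Gapdh and Rps18 and along a slope for Rpl10.

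The genes called with Gapdh included other genes of glycolysis and neighbours on chromosome 6. The fit on Gapdh called 2.25% of genes, which was 302 genes, 204 with a positive and 98 with a negative slope. Of 18 other glycolysis genes in the table, 7 were called, all with positive slopes, and the median slope was 0.05 against -0.00422 over all genes. Slopes were above 0 for 14 of the 18. They were also above 0 for 13 of 13 genes of the mitochondrial genome (median 0.05) and 8 of 8 muscle markers (0.03). Among ribosomal genes, 47 of 47 of the large and 30 of 32 of the small subunit were above 0 (medians 0.04 and 0.04). For other cell types the counts were 0 of 4 fibroblast (-0.06), 0 of 3 blood (-0.15) and 1 of 5 adipocyte markers (-0.05). They were 1 of 4 for macrophage (-0.02) and 1 of 3 for endothelial markers (-0.05). The 7 called glycolysis genes were the enolase gene Eno3 (0.10 ± 0.01, limma adjusted p = 2.82e-07), the phosphoglycerate kinase gene Pgk1 (0.12), the aldolase gene Aldoa (0.09), Pfkm (0.07), Gpi1 (0.07), Tpi1 (0.07) and Ldha (0.05). Slc16a3, a lactate exporter of fast fibres, had a slope of 0.15 (limma adjusted p = 0.00107). The copies ran the other way, with slopes of -0.87 for Gapdhrt2 (adjusted p = 0.000647) and -0.88 for Gapdhrt (adjusted p = 0.00107). Without the 2 animals farthest from the median Gapdh, the slope for Gapdhrt was -1.97 per log2 unit of Gapdh against -3.07 over all animals, and it was not called (limma adjusted p = 0.0505). Within the lower run of Gapdhrt2, as given above, Gapdhrt2 and Gapdh were positively related.

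Among 92 neighbours within 5 megabases of Gapdh, 12 were called, including the mitochondrial ribosomal gene Mrpl51 (slope 0.13, limma adjusted p = 1.99e-06), the complement paralog C1s2 (-0.82, adjusted p = 7.41e-06) and the glycolytic gene Tpi1 (0.07, adjusted p = 0.00345). With the sum of Gapdh and its copies as predictor, 1043 genes were called and 10 of 18 glycolysis genes. C1s2 then had a slope of -0.214 per SD of the sum (limma adjusted p = 0.395), while Mrpl51 and Tpi1 stayed called (adjusted p = 0.000498 and 1.03e-07). Adjusting for 3 principal components of all genes left 36 genes called.

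Ribosomal protein genes other than a parent were called with Rpl10-ps3 and Gapdh. In the fit on Rps18-ps6, which called 0.112% of all genes, 1 of 32 small subunit genes (Rps18 itself) and 0 of 47 large subunit genes were called. In the fit on Rpl10-ps3, which called 0.551% of all genes, Rps15a (-0.16, limma adjusted p = 0.00222) and Rps29 (-0.13, adjusted p = 0.0099) were called of 32, and Rpl10, Rpl35 (-0.22, adjusted p = 0.000137) and Rpl37 (-0.09, adjusted p = 0.0342) of 47, all with negative slopes. Over the whole lists, slopes on Rpl10-ps3 were above 0 for 19 of 32 small and 22 of 47 large subunit genes. With ranks the numbers called were 4 and 8, and on the larger side 5 and 8. In the fits on Gapdhrt and Gapdhrt2, which called 0.0149% and 0.0298% of all genes, 0 of both lists were called, and of 19 glycolysis genes only Gapdh was. In the fit on Gapdh, which called 2.25% of all genes, 5 of 32 and 2 of 47 were called, all with positive slopes. These 2 counts depended on the setting: they were 2 and 1 adjusted for title-number block, 1 and 0 with the components, 13 and 12 with ranks, and 15 and 22 with the family sum.

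The tissue matched its label. All 8 skeletal muscle markers were in the table with gene means from 10.6 to 15.9. Summed adipocyte markers had a median of 6.15, and the sums ran for blood markers from 7.09 to 14.4, for macrophage markers from 3.69 to 6.59, for endothelial markers from 6.67 to 7.98 and for fibroblast markers from 8.16 to 10.4. Of the 19 markers of these 5 other cell types 0 were called in the fit of any member, where the fits called 0.0149% to 2.25% of all genes. Their slopes often had 1 sign within a list. Adipocyte markers were above 0 for 5 of 5 on Rps18-ps6 (median 0.10) and 0 of 5 on Gapdhrt2 (-0.07) and Rpl10-ps3 (-0.07). Macrophage markers were above 0 for 4 of 4 on Rps18-ps6 (0.06) and 0 of 4 on Gapdhrt (-0.08) and Rpl10-ps3 (-0.06). Blood markers were for 3 of 3 on Gapdhrt2 (0.11), Rps18-ps6 (0.10) and Rpl10-ps3 (0.11), and 0 of 3 on Gapdhrt (-0.03). Endothelial markers were for 3 of 3 on Gapdhrt and Rps18-ps6, and fibroblast markers for 4 of 4 on Gapdhrt2 and 0 of 4 on Gapdhrt. Genes of the mitochondrial genome were above 0 for 13 of 13 on Gapdhrt (0.06) and 0 of 13 on Rps18-ps6 (-0.07). The part of other cell types in the slopes was not tested. Of the muscle markers, Acta1 was called with Gapdh (slope 0.06, limma adjusted p = 0.0474). Of 13 genes of the mitochondrial genome, mt-Atp8 was called with Rpl10-ps3 (slope -0.15, limma adjusted p = 0.0477), although 10 of the 13 had slopes above 0 there (median 0.02). Both calls were lost when title-number block or the components were adjusted for, and that of mt-Atp8 also without the 2 animals farthest from the median, while 2 mitochondrial genes were called on the log2(value + 1) scale and 3 with ranks. Sample sums of the per-million values ran from 898071 to 1140761, and the read depth of the libraries is not given in the sources used here.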

How the data were processed

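Per the labels' protocols, 500 ng of quadriceps RNA per animal went into KAPA mRNA HyperPrep libraries. The submitters' processing notes name bcl2fastq, MultiQC, kallisto 0.50.1, edgeR and mm10, without roles. The deposited table holds log2 per-million values, as the authors made them, and no counts, so no count model was used; the transcript index and depth are not given in the sources used here. Of 13456 lines 15 were repeats and were removed, which left 13441 genes, of which 13255 matched GENCODE M21 by Ensembl ID.

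Slopes of every gene on the standardised level of each member were fitted over 92 animals with limma 3.58.1 in R 4.3.3 (mean-variance trend, Benjamini-Hochberg adjustment, called at an adjusted p under 0.05), and the script was checked on simulated data. Labels do not say that the animals are unrelated. Correlations were tested two-sided with 100000 resamples, or over all orders under 10 animals, and adjusted over 24 relations (8 for those within runs, 3 for those added last). Where 2 IDs share a symbol (Aldoa), lists use the ID with the higher mean. Words and coding alignments came from GENCODE M21 transcripts (Biopython 1.88). Named genes were the members and parents, the 10 smallest p per retrocopy, up to 5 called and the nearest 2 neighbours on either side at each locus, the 5 most alike by Spearman correlation, and annotated copies with at least 10% of their words in a parent; the text gives those that carry a result. The glycolysis, ribosomal and marker lists are textbook lists. Members, lists and rules were chosen with earlier results of these data known, and the split into runs, the larger-side fits, the relations that leave out animals of a run and the family sums after the values were seen.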

Additional observations from a re-analysis of the deposited data

How the results depend on the processing

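Counts of called genes depended on the setting, and for those named here the cause was not tested. For Gapdh the 302 calls became 137 adjusted for title-number block, 36 with 3 principal components, 690 with ranks and 1043 with the family sum, and its 12 called neighbours became 4 with the components. For Gapdhrt the 2 calls became 1 without the 2 farthest animals, 1 with the ratio to the parent and 1 (another gene) on the larger side. For Gapdhrt2 the 4 calls became 2 and the 2 near Gapdh became 0 when only genes with a mean of at least 1 were tested, since C1rb and C1s2 fall below it; ranks gave 7 and 5. For Rps18-ps6 the 15 calls became 9 with the components, 6 without the 2 farthest animals, 24 with the ratio and 3 on the larger side, and the 6 near Rps18 became 3, 2, 11 and 0. For Rpl10-ps3 the 74 calls became 134 on the log2(value + 1) scale, 202 with ranks and 134 on the larger side, and the 0 near Rpl10 became 1 with the components, the mean filter, log2(value + 1), ranks or the ratio. Near the retrocopies themselves the count was 0 in the settings run, windows of 2 and 10 megabases included. With at least 10 animals on each side, 1 retrocopy (Rpl10-ps3) kept its gap. Within runs, r of Gapdhrt2 and Gapdh was 0.771 and that of Rps18-ps6 and Rps18 0.541 and -0.0227, and below the step in the upper side of Rpl10-ps3 its r with Rpl10 was -0.187. Among named genes called over all animals, slopes changed sign for Gapdhrt2 (0.124) and Gapdhrt (0.00986) on the Gapdh family sum. On the larger side of Rps18-ps6 they did so for Tigd4 (-0.0296) and Atp8a2 (0.0343). Slopes of genes not called also changed sign in some settings, as for Rps18 on the family sum (0.0815 against -0.05 on Gapdh). No paired analysis was possible because the animals form 1 group. Depth is unknown, so values at the floor give no bound.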

Other observations

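Among the 20 genes tagged as retrogenes with a mean of at least 1, 2 others had a gap, narrower than those described above: Ftl1-ps1, a copy of the ferritin light chain gene, with a widest step of 2.66 log2 units and an SD of 2.85, and Tpm3-rs7, a copy of a tropomyosin gene, with 2.39 and 2.31. Steps given here left 5 or more animals on each side. The enolase copy Eno1b, at a mean of 5.78 with an SD of 0.43, had a widest step of 0.197. Most of the remaining retrogenes varied little: Ranbp6, a nuclear import receptor at a mean of 4.17, had an SD of 0.20, and Chmp1b, an ESCRT-III subunit at 4.80, had 0.14. These genes were chosen after their values were seen.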
